A study of Mus musculus with 2 samples.

Results

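The 9 genes described here encode 3 ligands of the epidermal growth factor receptor (Areg, Ereg and Hbegf), that receptor (Egfr), the beta-A subunit of activin (Inhba), transforming growth factor beta 1 (Tgfb1), the paired TGF-beta receptor chains (Tgfbr1 and Tgfbr2) and a secreted TGF-beta-induced matrix protein (Tgfbi). They were chosen by symbol, for their place in these pathways, from the 32285 genes listed for each library, and all 9 were found. The levels below ask which leukocyte classes of the inflamed mouse gum carried the ligand transcripts, which leukocyte or stromal classes carried the receptor transcripts, and how far a diabetic and a normoglycemic library differed in each.

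Both libraries hold single-cell RNA-seq of gingiva from mice with bacterial inflammation kept up for 2 weeks and then left for another 2 weeks. The diabetic library came from mice given streptozotocin, which destroys insulin-producing cells and gives a model of type 1 diabetes, and the normoglycemic library from the comparison mice. All mice were CD11CCre-/-;FoxoLL on a mixed C57B6 and FVB background, so Foxo1 carried loxP sites around exon 2, Cre was absent, and normal Foxo1 protein was reported for such mice. Each library pooled the gingival cells of 4 mice, and there was 1 library for each condition. No value below therefore has a replicate or a test, and the intervals given are 95% exact intervals that cover counting error only. Differences between the mice, the pools and the libraries cannot be told apart from the effect of diabetes. Dead, CD31+ and Ter-119+ cells were sorted away, CD45+ cells were kept with a 20% enrichment of CD11c+ CD45+ cells, and 10000 cells were loaded. The sort sets how many cells of each class are present, so class sizes are not compared.

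After filtering, 10260 cells of the diabetic library and 10946 cells of the normoglycemic library were analysed, with a median of 4631.5 and 5302.5 unique molecular identifiers (UMIs, each standing for 1 captured transcript) per kept cell. The libraries share 32 cell barcodes. Clusters of both libraries together were named from marker genes, and a cell was kept in a class only if it had UMIs of at least 2 markers of that class and of no more markers of any other class than of its own. The gate kept 8708 diabetic and 9473 normoglycemic cells. Classes are therefore called neutrophil-like, monocyte-like and so on. Of the named classes, 7 had at least 100 gated cells in both libraries and were compared. These were the neutrophil-like (4829 diabetic and 5269 normoglycemic cells), monocyte-like (843 and 964), macrophage-like (1246 and 1364), cDC1-like (type 1 dendritic cells, 237 and 223), alpha-beta T-like (169 and 560), gamma-delta or type 17 T-like (172 and 215) and B-like (147 and 306) classes. The mix of sexes also differed. Cells with a UMI of a Y-linked gene and none of Xist (male-called) and cells with the opposite pattern (female-called) were counted. In neutrophil-like cells they numbered 1799 and 205 in the diabetic and 2698 and 38 in the normoglycemic library. In monocyte-like cells they numbered 394 and 234, and 671 and 49. Sex cannot be told apart from diabetes in the pooled ratios. The CD45+ sort did not remove all other cells. The diabetic library held 266 fibroblast-like, 269 mural-like, 59 Schwann-like, 97 keratinocyte-like and 110 secretory epithelial-like cells, and the normoglycemic library held 22, 8, 6, 6 and 6 of them, so stromal levels rest almost wholly on the diabetic library. The keratinocyte-like cluster was also led by the salivary genes Dcpp1, Dcpp2, Dcpp3 and Bpifa2. Different clusters held most of the neutrophil-like class in the libraries. Diabetic cells lay mainly in clusters led by Ngp and Retnlg (1528 cells) and by G0s2 and Rdh12 (1463 cells), and normoglycemic cells mainly in clusters led by Lcn2 and Plet1 (1547 cells), F3 and Hcar2 (1105 cells), Mrgpra2b and Stfa2 (1031 cells) and Hcar2 and Tnfrsf23 (1013 cells). Levels are given as CPM, the UMIs of a gene per 1000000 UMIs of the class.

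Amphiregulin (Areg), epiregulin (Ereg) and heparin-binding EGF-like growth factor (Hbegf) are made as membrane proteins and released by proteases such as ADAM17, after which they bind the receptor tyrosine kinase EGFR on epithelial cells, fibroblasts and some myeloid cells and promote growth and repair. Amphiregulin is a known product of tissue-resident type 17 and gamma-delta T cells, regulatory T cells and group 2 innate lymphoid cells (ILC2). Activin A, a dimer of the Inhba product, and TGF-beta 1 signal through pairs of serine/threonine kinase receptors to SMAD proteins. TGF-beta 1 is secreted in a latent form that integrins or proteases must activate, its receptor needs both TGFBR2, which binds the ligand, and TGFBR1, which is recruited to it, and TGFBI is an extracellular matrix protein first found as a TGF-beta target. In gum tissue these factors are known for their parts in epithelial renewal, fibrosis and the restraint of inflammation.

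Positions are given from GENCODE vM21 on GRCm38. Areg occupies chr5:91139599-91148432 and Ereg chr5:91074622-91093646, both on the plus strand with 45952 bases between them. Inhba lies at chr13:16011851-16031621 and Tgfbi at chr13:56609523-56639562, Tgfb1 at chr7:25687002-25705077, Egfr at chr11:16752203-16918158 and Tgfbr1 at chr4:47353222-47414931, all on the plus strand, and Tgfbr2 at chr9:116084293-116175360 on the minus strand. RefSeq promoter windows (GRCm38.p6, 250 bases before to 50 bases after the start) were found for 7 of the 9 genes. The 250 bases upstream of the start are shown for Areg (chr5:91139349-91139598), Inhba (chr13:16011601-16011850) and Tgfb1 (chr7:25686752-25687001), all plus strand, because the values of these 3 ligands carry most of the differences described below. Capitals mark a match to a searched motif.
Areg: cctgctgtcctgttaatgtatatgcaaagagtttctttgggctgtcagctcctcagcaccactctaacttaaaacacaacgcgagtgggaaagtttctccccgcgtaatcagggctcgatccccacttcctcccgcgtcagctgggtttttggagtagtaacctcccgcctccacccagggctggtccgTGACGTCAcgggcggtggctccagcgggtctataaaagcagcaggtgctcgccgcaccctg
Inhba: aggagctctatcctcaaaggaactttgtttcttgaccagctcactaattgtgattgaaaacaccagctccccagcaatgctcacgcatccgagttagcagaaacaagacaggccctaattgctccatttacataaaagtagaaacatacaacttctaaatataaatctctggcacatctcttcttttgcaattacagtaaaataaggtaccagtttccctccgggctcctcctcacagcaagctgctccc
Tgfb1: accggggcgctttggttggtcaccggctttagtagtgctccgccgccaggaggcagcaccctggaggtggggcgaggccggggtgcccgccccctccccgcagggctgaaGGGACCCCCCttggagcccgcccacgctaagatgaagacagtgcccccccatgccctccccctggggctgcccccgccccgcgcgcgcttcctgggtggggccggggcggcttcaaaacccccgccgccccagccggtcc
Both strands of each 300-base window were searched for the cyclic AMP response element (TGACGTCA, in 1.79% of 32851 RefSeq windows), the AP-1 site (TGANTCA, 7.81%), the palindromic SMAD box (GTCTAGAC, 0.213%) and a loose NF-kappaB site (GGGA, any 4 bases, then CC, 20.7%). The Areg window held TGACGTCA starting at position -61 from the start, and the Tgfb1 window held GGGACCCCCC at -140. The Tgfbi window held GGGAGGCGCC at -81, also a match to the loose NF-kappaB letters. No motif letters were found in the windows of Inhba, Egfr, Tgfbr1 or Tgfbr2. These matches describe the sequence only.

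Across the 9 genes and the 7 compared classes there were 63 pairs of a gene and a class, of which 43 were measured, that is, had a mean of at least 10 CPM over the libraries and at least 20 UMIs together. The level was at least 1.5-fold higher in the diabetic library in 7 of the 43 measured pairs and at least 1.5-fold lower in 17. Over all genes and the same classes, 6.55% of 44034 measured pairs were at least 1.5-fold higher and 11.8% at least 1.5-fold lower. The median log2 ratio was -0.42 over the members' pairs and -0.05 over all pairs. The higher pairs were Areg in 4 classes, Hbegf in 1, and Tgfbr2 and Tgfbi in neutrophil-like cells. Inhba made up 6 of the lower pairs, Tgfbr1 4, Tgfb1 and Tgfbi 3 each, and Hbegf 1. The interval of the ratio excluded 1 in 7 of the 7 higher pairs and in 15 of the 17 lower ones.

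**Figure D1:**
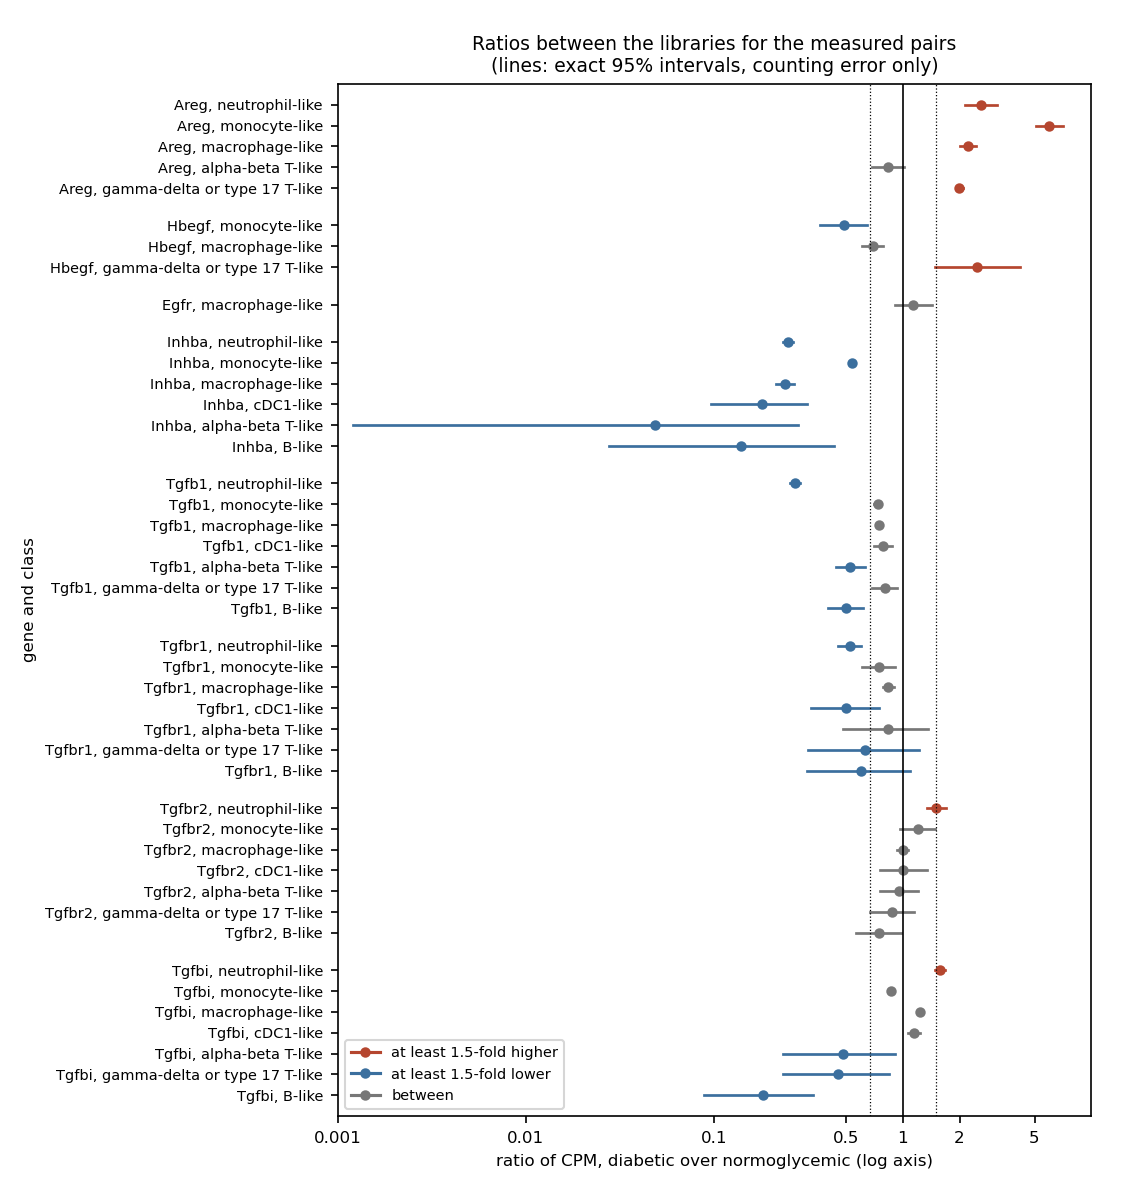
Ratio of the CPM level, diabetic over normoglycemic, for the 43 measured pairs of a gene and a class (log axis), with lines for the 95% exact interval from counting error and dotted guides at 1.5-fold. Areg points lie to the right of 1 in 4 of 5 classes, and Inhba and Tgfb1 points lie to the left of 1 in each compared class plotted for them.

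**Figure D2:**
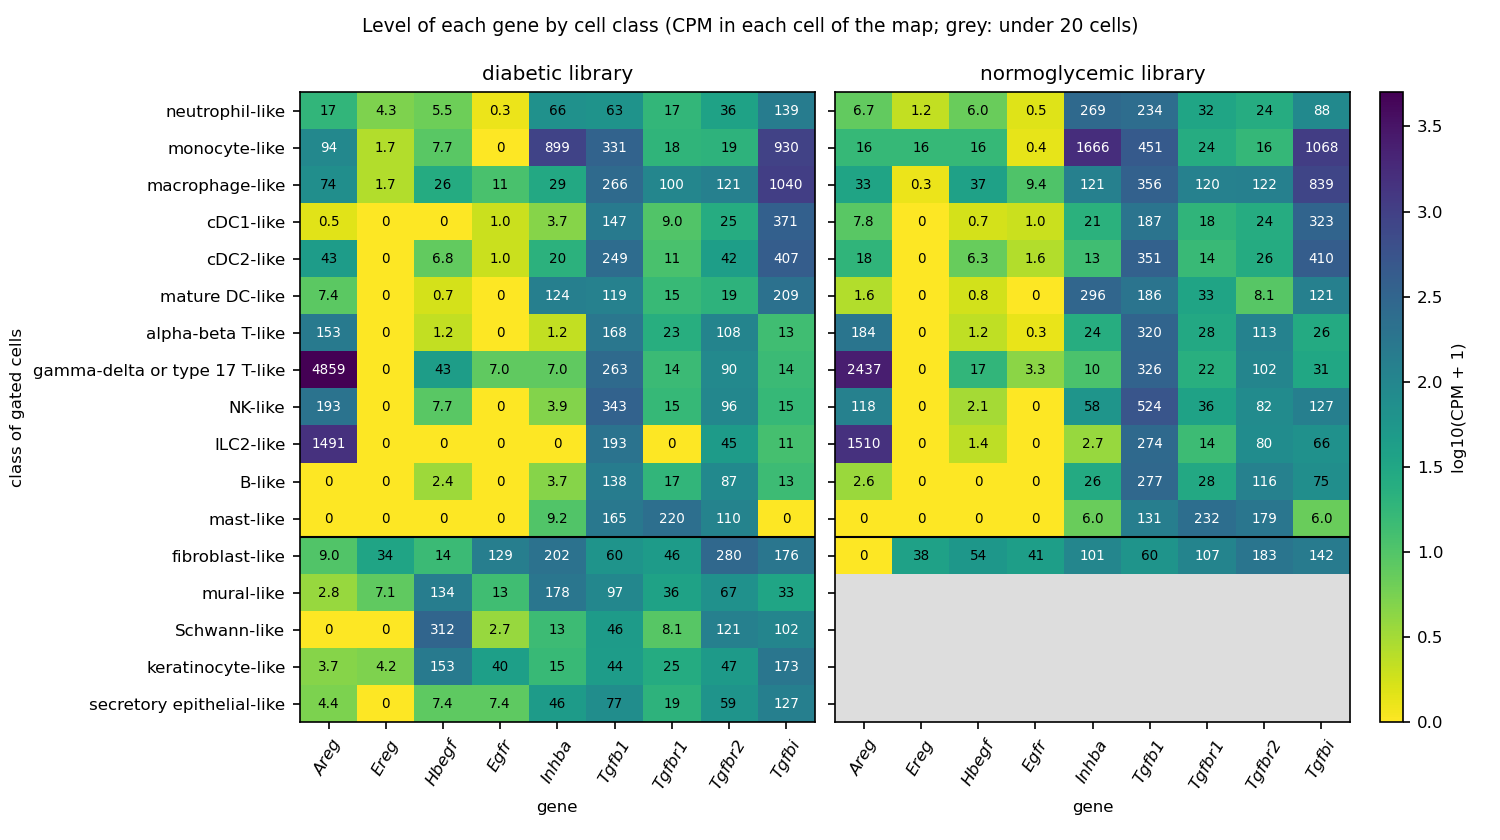
Level of each gene in each class with at least 20 gated cells, diabetic library on the left and normoglycemic library on the right, as log10 of CPM + 1. Areg is strongest in gamma-delta or type 17 T-like and ILC2-like cells, Inhba in monocyte-like cells and Tgfbi in monocyte-like and macrophage-like cells, while Egfr is strongest in fibroblast-like cells.

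Areg was highest in gamma-delta or type 17 T-like cells of both libraries. These cells, led by Il17a, Trdc and Cd163l1, had 4859 CPM (4864 UMIs) in the diabetic library and 2437 CPM (3643 UMIs) in the normoglycemic library, a ratio of 1.99 (1.91 to 2.08). The class contributed 53.2% of all diabetic and 46% of all normoglycemic Areg UMIs, and cells outside the gate 11.9% and 16.1%. After every cell was thinned to 1000 UMIs, 49.7% of diabetic cells (42 to 57.4%) and 34.1% of normoglycemic cells (27.8 to 40.9%) of the class had an Areg UMI. Without thinning the shares were 62.2% of diabetic and 47.9% of normoglycemic cells. Cells with any Areg UMI held a median of 19 Areg UMIs in the diabetic library (107 cells) and 10 in the normoglycemic library (103 cells), so both the share of Areg-bearing cells and the transcripts in each were higher in the diabetic library. B-like cells, with 0 diabetic and 5 normoglycemic Areg UMIs, are given beside these shares as a low class. The plan did not name them as a background for this gene. There 0 of 147 diabetic cells had an Areg UMI after thinning, which allows a share of up to 2.04%, and 0.331% of normoglycemic cells did. Median depth was 5331.5 diabetic and 6228 normoglycemic UMIs in the gamma-delta or type 17 T-like class, and 4338 and 4742 in the B-like class. In gamma-delta or type 17 T-like cells 5.79% of all measured genes were at least 1.5-fold higher and 13.9% at least 1.5-fold lower in the diabetic library. The summed level of the 8 markers that define the class moved the same way, with 20124 CPM in the diabetic and 9279 CPM in the normoglycemic library, and all 8 were detected in both. Its part in the Areg difference was not tested.

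ILC2-like cells, led by Ccl1, Il13 and Csf2, were the next class for Areg, with 1491 CPM (33 cells) in the diabetic and 1510 CPM (112 cells) in the normoglycemic library. Their thinned shares were 39.4% (22.9 to 57.9%) and 42.9% (33.5 to 52.6%), so the levels and shares of the libraries overlapped in this class. Alpha-beta T-like cells had 153.3 CPM of Areg in the diabetic and 183.5 CPM in the normoglycemic library, a ratio of 0.836 that lay within 1.5-fold. This ratio leaned on few cells, and without the 3 cells with most Areg UMIs in each library it was 0.504. Alpha-beta T-like cells with a UMI of Foxp3, the defining factor of regulatory T cells, had 414.9 CPM (32 cells) in the diabetic and 339.6 CPM (163 cells) in the normoglycemic library. The cells without a Foxp3 UMI had 92.9 CPM in the diabetic and 125.7 CPM in the normoglycemic library, so the Foxp3-bearing cells were the higher ones in both. In the whole class 1 diabetic cell held 51 of the 132 Areg UMIs and 1 normoglycemic cell 131 of the 590. How far this order rests on such cells was not tested. NK-like cells had 192.7 CPM (41 cells) and 118 CPM (60 cells), with overlapping intervals.

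Areg was also found in a small number of monocyte-like and macrophage-like cells, and its level in both classes was higher in the diabetic library. Monocyte-like cells had 94.1 CPM in the diabetic and 15.8 CPM in the normoglycemic library, a ratio of 5.97 (5.06 to 7.07). Macrophage-like cells had 74 CPM in the diabetic and 33.4 CPM in the normoglycemic library, a ratio of 2.22 (2.01 to 2.46). The ratio was above 1 in both monocyte-like clusters (4.91 and 7.05) and in the 3 macrophage-like clusters (1.05 to 3.02). The transcripts sat in few cells. In the monocyte-like class 41 of 843 diabetic and 33 of 964 normoglycemic cells had an Areg UMI, of which 21 diabetic and 5 normoglycemic cells had 10 or more. In the macrophage-like class 34 diabetic and 17 normoglycemic cells had 10 or more. Thinned shares were 2.85% (1.84 to 4.22%) of diabetic and 0.624% (0.229 to 1.35%) of normoglycemic monocyte-like cells. They were 2.67% (1.84 to 3.72%) of diabetic and 1.4% (0.843 to 2.17%) of normoglycemic macrophage-like cells. Of the cells with 10 or more Areg UMIs, at least 2 of 8 T-cell genes were detected in 1 of 21 diabetic and 0 of 5 normoglycemic monocyte-like cells and in 0 of 34 diabetic and 1 of 17 normoglycemic macrophage-like cells. Among cells without an Areg UMI the shares with at least 2 T-cell genes were 0.249% of diabetic and 0.107% of normoglycemic monocyte-like cells, and 0.431% of diabetic and 1.07% of normoglycemic macrophage-like cells. The cells with 10 or more Areg UMIs were deeper. Their median was 13633 UMIs in diabetic monocyte-like and 17233.5 in diabetic macrophage-like cells, against 10279 and 10537.5 without an Areg UMI. In the normoglycemic library it was 13797 and 16289, against 11253 and 11867. The 8 genes include no ILC2 marker, and the gate had already removed cells with more markers of another class. Whether these cells were doublets was not tested. In monocyte-like cells 6.04% of all measured genes were at least 1.5-fold higher and 7.37% at least 1.5-fold lower, and in macrophage-like cells 1.94% and 3.57%.

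The size of the myeloid Areg ratio depended on which cells were kept. Among cells with a UMI of a Y-linked gene and none of Xist (male-called), the ratio was 3.79 in monocyte-like and 4.08 in macrophage-like cells. Among macrophage-like cells with the opposite pattern (female-called) it was 1.45, with 82.3 CPM in the diabetic and 57 CPM in the normoglycemic library. Without the per-cell gate the monocyte-like ratio was 3.55. Neutrophil-like cells had 17.4 CPM of Areg in the diabetic and 6.68 CPM in the normoglycemic library, a ratio of 2.61 (2.15 to 3.18), but in each library the 3 highest cells held most of it, 73.2% of the diabetic and 60.9% of the normoglycemic UMIs. The share of neutrophil-like cells with an Areg UMI, thinned, was 0.294% (0.161 to 0.492%) in the diabetic and 0.231% (0.119 to 0.403%) in the normoglycemic library, and in male-called cells the ratio was 0.483. Of the 4 neutrophil-like clusters where Areg was measured, 2 were lower in the diabetic library. The cluster led by Mrgpra2b and Stfa2 had 43 UMIs in 919 diabetic and 76 UMIs in 1031 normoglycemic cells, and the cluster led by Hcar2 and Tnfrsf23 had 1 UMI in 203 diabetic and 74 UMIs in 1010 normoglycemic cells. The thinned neutrophil-like shares lay under the limit given for diabetic B-like cells. So did the normoglycemic monocyte-like and macrophage-like shares, and that limit is too wide to tell a low Areg share from none. In neutrophil-like cells 19% of all measured genes were at least 1.5-fold higher and 15.3% at least 1.5-fold lower.

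**Figure D3:**
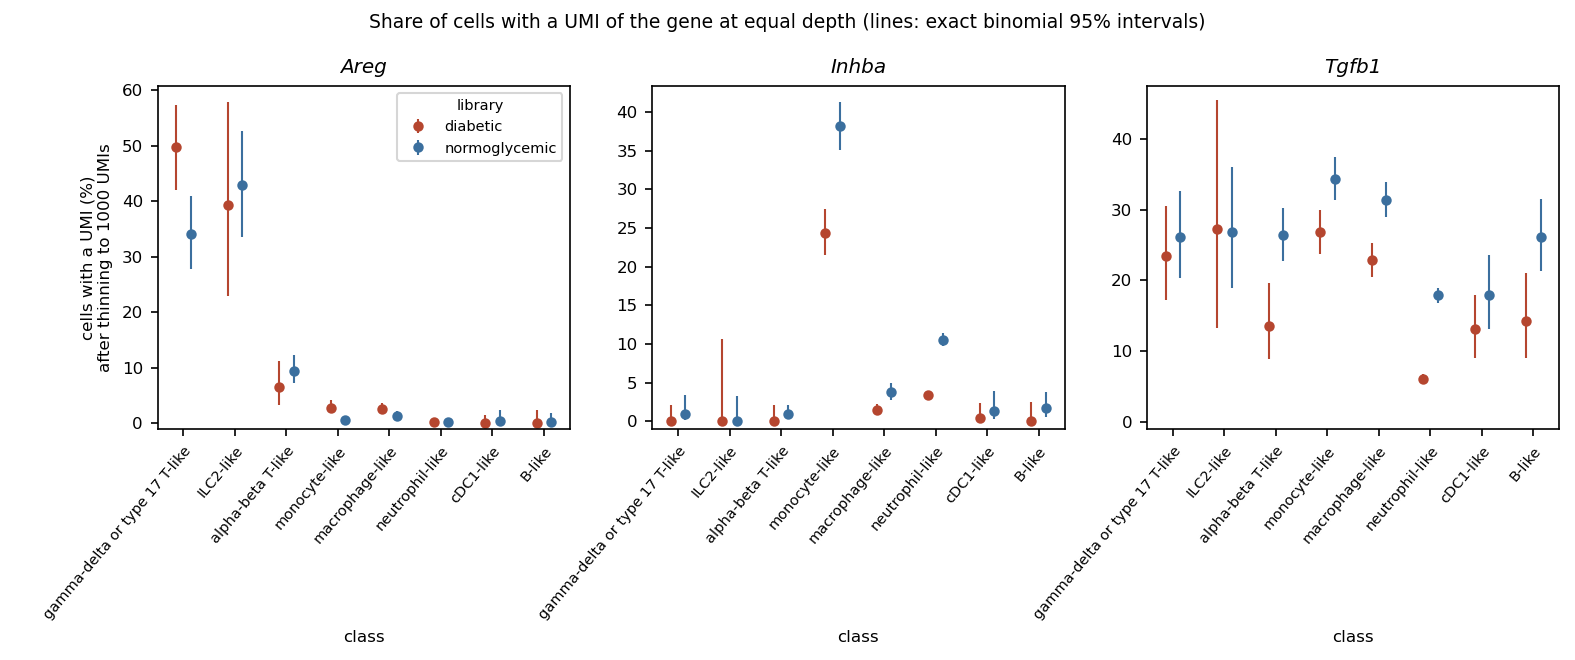
Share of cells with a UMI of Areg, Inhba or Tgfb1 in 8 leukocyte classes after thinning each cell to 1000 UMIs, diabetic library left of the normoglycemic library in each class. Lines are 95% exact binomial intervals. The diabetic share is the higher one for Areg in gamma-delta or type 17 T-like cells (49.7% against 34.1%), and the lower one for Inhba in monocyte-like (24.4% against 38.2%) and for Tgfb1 in neutrophil-like cells (6.1% against 17.9%).

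Hbegf followed another pattern, with its highest levels in the diabetic library outside the leukocytes. In male-called diabetic cells, where the 14 Schwann-like cells were too few to rank, gamma-delta or type 17 T-like cells led. In the diabetic library Schwann-like cells had 312 CPM (258 to 374), keratinocyte-like cells 152.7 CPM and mural-like cells 133.9 CPM, and the keratinocyte-like and mural-like intervals overlapped. In the normoglycemic library no stromal class had enough cells to rank apart from fibroblast-like cells, whose 53.6 CPM came from 2 cells. Their interval (31.2 to 85.8) overlapped that of macrophage-like cells (34.2 to 39.9). Macrophage-like cells led there with finer clusters, without the highest doublet scores and in male-called and female-called cells. They also led without the 3 cells with most Hbegf UMIs. The normoglycemic library thus does not settle which class was highest. Macrophage-like cells contributed 22.2% of the diabetic and 41% of the normoglycemic Hbegf UMIs, more than any other leukocyte class. They had 25.5 CPM in the diabetic and 37 CPM in the normoglycemic library, a ratio of 0.691 (just within 1.5-fold), and the cluster led by Ccl8, Lyve1 and Folr2 had the highest level, 47.4 CPM in the diabetic and 61.3 CPM in the normoglycemic library. Monocyte-like cells had 7.72 CPM in the diabetic and 15.9 CPM in the normoglycemic library, a ratio of 0.487 (0.362 to 0.648). In gamma-delta or type 17 T-like cells Hbegf was higher, with 43 CPM (12 of 172 cells) in the diabetic and 17.4 CPM (9 of 215 cells) in the normoglycemic library, a ratio of 2.47 (1.48 to 4.19). Few of these cells carried it, and 1 cell in each library had 10 or more UMIs.

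Ereg was sparse. The whole diabetic library held 342 Ereg UMIs and the normoglycemic library 239, and none of the 7 compared classes reached the limits for a measured pair. Fibroblast-like cells were the leading class in both, with 33.6 CPM (15 of 266 cells) in the diabetic and 37.8 CPM (4 of 22 cells) in the normoglycemic library. Without the highest doublet scores mural-like cells led in the diabetic library, and under 5 alternatives monocyte-like cells led in the normoglycemic one. A class was ranked only where it had at least 20 cells and 10 UMIs of the gene. Normoglycemic fibroblast-like cells fell under these limits with finer clusters, in male-called cells and without the 3 cells with most Ereg UMIs, which had 11 of the 12. Monocyte-like cells had 15 UMIs in 4 cells of the diabetic library and 172 UMIs in 7 cells of the normoglycemic library, where 3 cells held 94.2% of them. Neutrophil-like cells had 75 UMIs in 20 cells of the diabetic library, 21.9% of its Ereg UMIs and the most of any leukocyte class there. In the normoglycemic library they had 28 UMIs in 9 cells (11.7%). In each library 3 neutrophil-like cells held most of these UMIs, 52% and 67.9%. No Ereg UMI was counted in gamma-delta or type 17 T-like, alpha-beta T-like, ILC2-like, NK-like, B-like, cDC1-like or cDC2-like cells of either library. For the gamma-delta or type 17 T-like class the count of 0 allows a level of up to 3 CPM in the diabetic and 2.01 CPM in the normoglycemic library, so the neighbouring genes Areg and Ereg differed in which classes carried them.

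Egfr, the receptor of these 3 ligands, was a transcript of stromal cells and of some macrophages. Fibroblast-like cells had 128.9 CPM (530 UMIs, 180 of 266 cells) in the diabetic and 41 CPM (13 UMIs, 8 of 22 cells) in the normoglycemic library. Keratinocyte-like cells had 40 CPM in the diabetic library, and mural-like cells 12.6 CPM. Among leukocytes, macrophage-like cells carried most of it, with 10.7 CPM (155 UMIs) in the diabetic and 9.39 CPM (169 UMIs) in the normoglycemic library, a ratio of 1.14 (0.907 to 1.42). The macrophage-like cluster led by Ccl8, Lyve1, Folr2 and Cd163 held 134 of those 155 diabetic and 151 of those 169 normoglycemic UMIs, at 36.3 CPM and 24.4 CPM. Monocyte-like cells, by contrast, had 0 Egfr UMIs among 843 diabetic cells and 4 among 964 normoglycemic cells. In neutrophil-like cells, used as the class that should lack Egfr, thinned shares were 0.0419% in the diabetic and 0.0769% in the normoglycemic library, against 1.37% (0.802 to 2.19%) and 0.662% (0.303 to 1.25%) in macrophage-like cells and 11.3% (7.77 to 15.8%) and 15% (3.21 to 37.9%) in fibroblast-like cells. Median depth was 3417 and 3994 UMIs in neutrophil-like, 10836 and 11994 in macrophage-like and 14117 and 14633 in fibroblast-like cells. Macrophage-like cells contributed 17.6% of the Egfr UMIs of the diabetic library and 69.8% of those of the normoglycemic library, and fibroblast-like cells 60.2% and 5.37%. In the normoglycemic library macrophage-like cells led for Egfr level under 5 alternatives. Fibroblast-like cells fell under the limits for a ranking with finer clusters (17 cells before the gate) and in male-called (10) and female-called cells (8). The same held without the 3 cells with most Egfr UMIs, which had 7 of the 13. The settings named here thus do not place macrophage-like above fibroblast-like cells. The other setting left out the highest doublet scores. There the fibroblast-like cluster held 20 normoglycemic cells before the gate, and why it did not lead was not looked at.

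Inhba was led by monocyte-like cells in both libraries and was lower in the diabetic library in the 6 compared classes where it was measured, although the direction in alpha-beta T-like cells did not hold under every setting. Monocyte-like cells had 898.6 CPM (7914 UMIs) in the diabetic and 1666 CPM (18271 UMIs) in the normoglycemic library, a ratio of 0.54 (0.525 to 0.554). They contributed 53.5% of the diabetic and 50.9% of the normoglycemic Inhba UMIs. Cells outside the gate, which entered no class, held 23.6% and 22.1%. Thinned shares of monocyte-like cells were 24.4% (21.5 to 27.4%) in the diabetic and 38.2% (35.1 to 41.3%) in the normoglycemic library. In B-like cells they were 0 of 147 diabetic and 1.66% of normoglycemic cells. Monocyte-like cells with 10 or more Inhba UMIs numbered 169 of 843 in the diabetic and 355 of 964 in the normoglycemic library. Most of the transcript came from the cluster led by Ptges, Nos2, Saa3 and Arg1, which had 1750 CPM in the diabetic and 2783 CPM in the normoglycemic library. The cluster led by Chil3, Plac8 and Ace had 68.8 CPM in the diabetic and 108 CPM in the normoglycemic library. Within-cluster ratios were 0.629 and 0.637, nearer to 1 than the pooled ratio. The monocyte-like ratio lay between 0.462 and 0.546 under the alternatives that could be run on this class, which leave out female-called cells because the normoglycemic library held 49 of them.

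Neutrophil-like cells had 66 CPM of Inhba (370 of 4829 cells with a UMI) in the diabetic and 269 CPM (1109 of 5269 cells) in the normoglycemic library, a ratio of 0.245 (0.23 to 0.261). They contributed 7.84% of the diabetic and 18.1% of the normoglycemic Inhba UMIs. The level was lower in the diabetic library in 6 of the 7 neutrophil-like clusters. The cluster led by Hcar2 and Tnfrsf23 had 260 CPM in the diabetic and 453.9 CPM in the normoglycemic library, and the cluster led by F3 and Hcar2 had 56.9 CPM in the diabetic and 376.9 CPM in the normoglycemic library. The exception was the cluster led by G0s2 and Rdh12, with 72 CPM in the diabetic and 63.6 CPM in the normoglycemic library. The clusters with the most Inhba were also those that held most normoglycemic cells, so part of the pooled ratio lies between clusters and part within them.

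Macrophage-like cells had 28.7 CPM of Inhba in the diabetic and 121 CPM in the normoglycemic library, a ratio of 0.237 (0.213 to 0.264), and all 3 macrophage-like clusters were lower. The largest, led by Gpnmb and Trem2, had 44.7 CPM in the diabetic and 201.9 CPM in the normoglycemic library. The size of this ratio varied with which cells were called macrophage-like. It was 0.34 in male-called cells, with 41.6 CPM in the diabetic and 122.3 CPM in the normoglycemic library. In female-called cells it was 0.423, with 10.3 CPM and 24.5 CPM. The ratio was 0.542 with finer clusters, 0.625 with a looser and 0.488 with a stricter cell filter. It became 0.759, within 1.5-fold, once the cells with the highest doublet scores were left out. The cDC1-like ratio of 0.178 (3.67 CPM in the diabetic and 20.6 CPM in the normoglycemic library) likewise became 0.715 without those cells, and 0.537 without the 3 cells with most Inhba UMIs, which held 84.5% of the normoglycemic UMIs. In alpha-beta T-like cells 1 diabetic UMI stood against 77 normoglycemic UMIs, a ratio of 0.0485, and without the highest doublet scores the direction reversed (1.22). In this class 3 cells held 83.1% of the normoglycemic UMIs. In B-like cells 3 diabetic UMIs stood against 51 normoglycemic UMIs. Beside these lymphoid values stands the summed level of 8 neutrophil markers in the same cells, of which 7 or 8 were detected in each. It was 919 CPM in the diabetic and 4783 CPM in the normoglycemic library in alpha-beta T-like cells, and 2747 CPM and 9058 CPM in B-like cells. Its part in the lymphoid differences was not tested. In alpha-beta T-like cells 7.02% of all measured genes were at least 1.5-fold higher and 16.4% at least 1.5-fold lower, in B-like cells 8.2% and 21.8%, and in cDC1-like cells 3.85% and 5.65%.

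Outside the compared classes Inhba was also present in stromal and other dendritic cells. Fibroblast-like cells had 201.6 CPM in the diabetic (118 of 266 cells) and 100.9 CPM in the normoglycemic library (9 of 22 cells), and mural-like cells of the diabetic library had 178.3 CPM. The fibroblast-like ratio was 2 (1.4 to 2.94), and cDC2-like cells also lay on the higher side, with 20.3 CPM (67 cells) in the diabetic and 12.8 CPM (227 cells) in the normoglycemic library (1.58, 0.907 to 2.65). Mature dendritic cell-like cells, led by Fscn1, Ccl22 and Ccr7, had 124 CPM in the diabetic and 296.3 CPM in the normoglycemic library, but 3 cells held 97% of the diabetic and 83.2% of the normoglycemic UMIs.

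**Figure D4:**
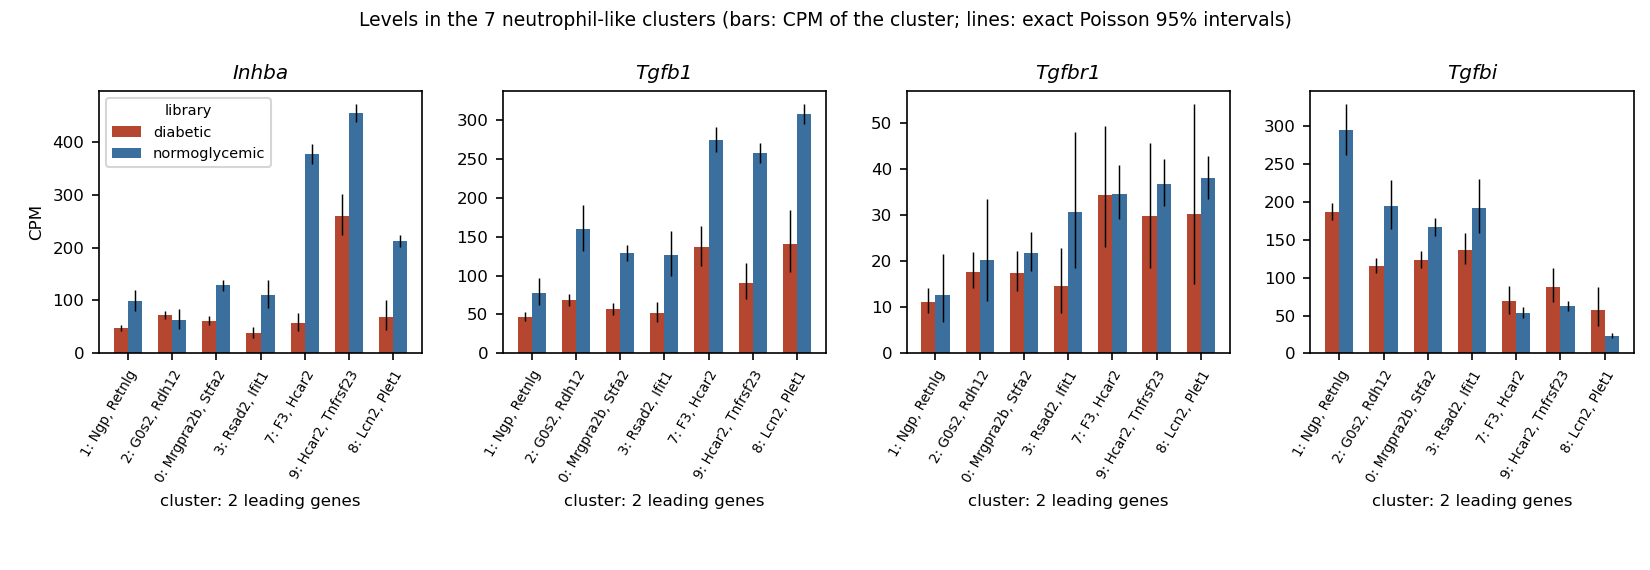
Levels of Inhba, Tgfb1, Tgfbr1 and Tgfbi in the 7 neutrophil-like clusters, with the diabetic bar left of the normoglycemic bar, in CPM from 0, and lines for 95% exact Poisson intervals. Tgfb1 is lower in the diabetic library in all 7 clusters, Inhba in 6, and Tgfbi in 4.

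Tgfb1 was spread over all leukocyte classes and was lower in the diabetic library in each of the 7 compared classes. NK-like cells ranked first in both libraries, with 343 CPM in the diabetic and 523.6 CPM in the normoglycemic library, but their intervals overlapped those of monocyte-like cells, with 331 CPM and 451 CPM. Macrophage-like cells had 265.7 CPM in the diabetic and 355.9 CPM in the normoglycemic library, a ratio of 0.747. The largest difference was in neutrophil-like cells, with 62.9 CPM (809 cells with a UMI) in the diabetic and 234 CPM (2405 cells) in the normoglycemic library, a ratio of 0.269 (0.252 to 0.286). Their thinned shares were 6.1% (5.44 to 6.82%) and 17.9% (16.8 to 18.9%). All 7 neutrophil-like clusters were lower, by ratios between 0.353 and 0.606, each nearer to 1 than the pooled ratio. Neutrophil-like cells thus supplied 8.05% of the diabetic and 20.4% of the normoglycemic Tgfb1 UMIs.

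Lymphoid Tgfb1 was lower as well. Alpha-beta T-like cells had 168 CPM in the diabetic and 320 CPM in the normoglycemic library, a ratio of 0.527, with thinned shares of 13.6% (8.83 to 19.7%) and 26.4% (22.8 to 30.3%). B-like cells had 138 CPM and 277 CPM, a ratio of 0.498, with thinned shares of 14.3% and 26.2%. Foxp3-bearing alpha-beta T-like cells had 253.9 CPM in the diabetic and 413.2 CPM in the normoglycemic library, and those without Foxp3 had 148.7 CPM and 285.1 CPM, so Tgfb1 was lower on both sides of the Foxp3 split. The neutrophil-marker levels given for these classes stand beside these values too, and their part was not tested. In cDC1-like and gamma-delta or type 17 T-like cells the ratios, 0.786 and 0.805, lay within 1.5-fold. Stromal levels in the diabetic library, with 60.1 CPM in fibroblast-like and 96.6 CPM in mural-like cells, were lower than in every leukocyte class but the neutrophil-like one.

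Tgfbr1 had its highest level in mast-like cells (220 CPM in the diabetic and 232 CPM in the normoglycemic library, from 24 and 39 UMIs) and the largest contribution from macrophage-like cells, which held 51.5% of the diabetic and 50.6% of the normoglycemic Tgfbr1 UMIs. Macrophage-like cells had 100.1 CPM in the diabetic and 119.5 CPM in the normoglycemic library, a ratio of 0.838. The macrophage-like cluster led by Lilra5, Zmynd15, Cd72 and Mmp12 stood out with 335.7 CPM in the diabetic and 382.5 CPM in the normoglycemic library. Neutrophil-like cells had 16.7 CPM in the diabetic and 32 CPM in the normoglycemic library, a ratio of 0.523. All 7 neutrophil-like clusters had a ratio under 1, but over a range of 0.476 to 0.993, so the pooled ratio lay near the low end of the within-cluster ones. The cDC1-like ratio was 0.499, and 0.69 with the looser cell filter. The lower ratios in gamma-delta or type 17 T-like (0.634, 0.313 to 1.22) and B-like cells (0.601, 0.308 to 1.1) had intervals that included 1, and lay within 1.5-fold under 5 and 2 of the alternatives. Fibroblast-like cells had 45.7 CPM in the diabetic and 107 CPM (34 UMIs) in the normoglycemic library.

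Tgfbr2 encodes the ligand-binding chain. Fibroblast-like cells led in both libraries, with 279.9 CPM in the diabetic and 182.8 CPM in the normoglycemic library, and thinned shares of 20% in each. In the normoglycemic library their interval (138.8 to 236.4) overlapped that of mast-like cells (178.6 CPM, 120.5 to 254.9), and another class led under 6 alternatives. With finer clusters and in male-called and female-called cells, normoglycemic fibroblast-like cells fell under the limit of 20 cells for a ranking. Macrophage-like cells had 121.4 CPM in the diabetic and 121.6 CPM in the normoglycemic library, a ratio of 0.998 (0.937 to 1.06), with the cluster led by Ccl8, Lyve1 and Folr2 highest at 225 CPM and 192 CPM. Lymphoid cells carried it broadly. Alpha-beta T-like cells had 108 CPM in the diabetic and 113 CPM in the normoglycemic library, gamma-delta or type 17 T-like cells 89.9 CPM and 102 CPM, and B-like cells 86.7 CPM and 116 CPM. Monocyte-like cells, which led for Inhba and were high for Tgfb1, had 19.4 CPM and 16.2 CPM. Of the 7 ratios 6 lay within 1.5-fold. The other was in neutrophil-like cells, with 36.5 CPM in the diabetic and 24.3 CPM in the normoglycemic library, a ratio of 1.5 (1.34 to 1.69). It was within 1.5-fold, at 1.39 and 1.32, with the TMM and median-of-ratios scalings, which moved the log2 ratios of this class by -0.12 and -0.19. Within the 7 neutrophil-like clusters the Tgfbr2 ratio ran between 0.774 and 1.55, with 5 above and 2 under 1. The cluster led by Mrgpra2b and Stfa2 had 32.4 CPM in the diabetic and 31.4 CPM in the normoglycemic library, and the cluster led by Ngp and Retnlg had 39.9 CPM and 51.5 CPM.

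Tgfbi was the member with the most UMIs in each library, 38376 in the diabetic and 40732 in the normoglycemic, and it belonged to the mononuclear phagocytes. Macrophage-like cells led in the diabetic library and monocyte-like cells in the normoglycemic one, but under 5 alternatives (the gate alone, finer clusters, the looser and the stricter cell filter and removal of the highest doublet scores) monocyte-like cells led in both. Macrophage-like cells had 1040 CPM in the diabetic and 839 CPM in the normoglycemic library, a ratio of 1.24, and monocyte-like cells had 930 CPM and 1068 CPM, a ratio of 0.87. The macrophage-like ratio was 1.46 in male-called and 0.957 in female-called cells. The cDC1-like cells had 371 CPM in the diabetic and 323 CPM in the normoglycemic library, and cDC2-like cells 407 CPM and 410 CPM. None of these phagocyte ratios reached 1.5-fold. In neutrophil-like cells the pooled level was 139 CPM in the diabetic and 88.3 CPM in the normoglycemic library, a ratio of 1.58 (1.49 to 1.67). Within clusters it ran both ways. The level was lower in the diabetic library in 4 of 7 clusters, among them the cluster led by Ngp and Retnlg with 187 CPM in the diabetic and 295 CPM in the normoglycemic library. It was higher in 3, among them the cluster led by Lcn2 and Plet1 with 57.8 CPM in the diabetic and 23.5 CPM in the normoglycemic library. The clusters with the most Tgfbi were also those with most diabetic cells, and the pooled ratio was 1.45 and 1.39 under the other scalings.

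In lymphoid cells Tgfbi was low, and its level was lower in the diabetic library in the 3 compared lymphoid classes. B-like cells had 13.4 CPM in the diabetic and 74.5 CPM in the normoglycemic library, a ratio of 0.18, where 1 normoglycemic cell held 47 of the 144 UMIs. Alpha-beta T-like cells had 12.8 CPM and 26.4 CPM, and gamma-delta or type 17 T-like cells 14 CPM and 30.8 CPM. Alpha-beta T-like cells without a Foxp3 UMI had 14.3 CPM in the diabetic and 14.1 CPM in the normoglycemic library, and those with one had 1 diabetic UMI against 52 normoglycemic UMIs. The direction in alpha-beta T-like cells reversed under 3 alternatives and that in gamma-delta or type 17 T-like cells under 1. Thinned shares in B-like cells were 2.04% (0.423 to 5.85%) in the diabetic and 1.66% (0.54 to 3.82%) in the normoglycemic library, with overlapping intervals. Without thinning 9 of 147 diabetic and 26 of 306 normoglycemic B-like cells had a Tgfbi UMI. These shares do not settle whether fewer B-like cells carried Tgfbi in the diabetic library. Summed neutrophil markers in gamma-delta or type 17 T-like cells were 1776 CPM in the diabetic and 6244 CPM in the normoglycemic library, and their part was not tested.

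The wider pathways were read from 8 lists holding 76 genes without the members. They gave 200 measured pairs, of which 6 were at least 1.5-fold higher and 48 at least 1.5-fold lower in the diabetic library, with a median log2 ratio of -0.24. Over all genes 6.55% of measured pairs were higher and 11.8% lower. Of the other EGF family ligands only 2 pairs were measured, with none past 1.5-fold. Among ERBB receptors and their restraint, 3 of 27 pairs were lower and 0 higher, a share of lower pairs near the 11.8% over all genes. Among proteins of ligand shedding, 9 of 36 were lower and 1 higher, and Rhbdf2, which brings ADAM17 to the cell surface, had 8.55 CPM in the diabetic and 14 CPM in the normoglycemic cDC1-like cells. The SMAD proteins and their restraint had 20 of 76 pairs lower and 2 higher. There the co-repressor Skil had 208 CPM in diabetic and 317 CPM in normoglycemic cDC1-like cells (0.657, 0.602 to 0.717), and Tgif1, another repressor of SMAD transcription, 188 CPM and 284 CPM in macrophage-like cells (0.662, 0.631 to 0.693). Bambi, a decoy receptor without kinase activity, had 13.9 CPM in diabetic and 27.9 CPM in normoglycemic macrophage-like cells. Smad4, the shared partner of the receptor-activated SMADs, was on the higher side, with 89.8 CPM in diabetic and 49.2 CPM in normoglycemic neutrophil-like cells (1.83, 1.69 to 1.97).

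In the list of TGF-beta storage and activation, 10 of 30 pairs were lower and 0 higher, against 11.8% lower and 6.55% higher over all genes. Of the lower pairs 3 were in alpha-beta T-like, 2 in gamma-delta or type 17 T-like and 2 in B-like cells. In these classes 16.4%, 13.9% and 21.8% of all measured genes were lower. The neutrophil-marker levels given for these classes stand beside the lymphoid values here too, and their part was not tested. Furin, the protease that cleaves the TGF-beta and activin precursors, had 133 CPM (1539 cells with a UMI) in diabetic and 348 CPM (2905 cells) in normoglycemic neutrophil-like cells, a ratio of 0.382 (0.364 to 0.399). Itgb8, the integrin chain that frees TGF-beta 1 from its latent form, had 11.2 CPM in diabetic and 30 CPM in normoglycemic monocyte-like cells (0.375, 0.296 to 0.471). Its partner chain Itgav had 66.2 CPM and 171 CPM in alpha-beta T-like cells (0.386, 0.289 to 0.508). Thrombospondin 1 (Thbs1), another activator, had 75.9 CPM and 153 CPM in gamma-delta or type 17 T-like cells, where 2 diabetic and 7 normoglycemic cells held 10 or more UMIs. Of the 3 measured pairs of the activin antagonist list, 2 were at least 1.5-fold higher in the diabetic library and 0 lower. Follistatin (Fst), the secreted protein that binds and neutralises activin, had 32.5 CPM (286 UMIs in 60 cells) in diabetic and 7.75 CPM (85 UMIs in 19 cells) in normoglycemic monocyte-like cells, a ratio of 4.19 (3.28 to 5.4). Summed over its cells, the class that led for Inhba thus had less Inhba and more of the transcript of its antagonist in the diabetic library. Whether the same cells or clusters carried both was not tested. In the normoglycemic library, however, 3 cells held 75.3% of the Fst UMIs. Cripto (Tdgf1), a co-receptor that antagonises activin, had 16.9 CPM in 20 diabetic and 5.88 CPM in 9 normoglycemic cDC1-like cells with a UMI.

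Of the other TGF-beta superfamily ligands, 3 of 5 measured pairs were lower and 0 higher, and all 3 were Gdf15, a stress-induced secreted factor. It had 3.76 CPM in diabetic and 27.8 CPM in normoglycemic neutrophil-like cells, a ratio of 0.135 (0.103 to 0.174), and 7.49 CPM and 18.4 CPM in monocyte-like cells, a ratio of 0.407 (0.303 to 0.54). In B-like cells 1 diabetic UMI stood against 101 normoglycemic UMIs, 97 of them in 3 cells. Of the other receptors of the family, 3 of 22 pairs were lower and 1 higher, near the shares over all genes (11.8% lower and 6.55% higher). The higher one was Acvrl1, a type I receptor best known from endothelial cells, with 28.1 CPM in diabetic and 14.4 CPM in normoglycemic neutrophil-like cells (1.95, 1.7 to 2.24). The remaining genes that the naming rule picked were Lrig1 in alpha-beta T-like cells (ratio 0.515), Smad3 in gamma-delta or type 17 T-like cells (0.541), and Smad2 (1.6) and Thbs1 (0.0888) in B-like cells.

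The genes whose levels followed each member most closely were ranked over 19 class and library pairs with at least 100 cells, by Pearson's r of log2(CPM + 1) among 9625 genes. These points share libraries and depth, so r is given as a description. Areg was followed most closely by Emb (0.918), Tnfrsf25 (0.891) and the T-cell receptor constant segment Tcrg-C4 (0.886). Inhba was followed by Sod2, the mitochondrial superoxide dismutase (0.949), Serpinb2 (0.904) and Bnip3 (0.89), and Tgfbi by Dock4 (0.946), Ifi204 (0.937) and Gm14636 (0.936). Ereg was nearest to the hyaluronan synthase gene Has1 (0.936) and Egfr to Olfml3 (0.925), each with stromal levels among its points. The nearest genes were Tatdn2 for Tgfb1 (0.897), Ccl8 for Tgfbr1 (0.883), Jade2 for Tgfbr2 (0.874) and Fbxo30 for Hbegf (0.805).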

How the data were processed

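Gingival cells of 2 pools of mice, 1 diabetic and 1 normoglycemic, were measured with 10x Genomics 3' chemistry. The authors deposited, for each library, a matrix of UMI counts per gene and cell. The matrices were made with Cell Ranger 4.0.0 per the file headers, and the submitters' processing notes name version 6.0.2 and the build mm10. The annotation release is not given in the sources used here. The matrices hold 10496 diabetic and 11280 normoglycemic barcodes with 78220582 and 89339733 gene UMIs. The 4 antibody capture features per library were not used.

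Cells with at least 500 UMIs, 200 genes and at most 15% mitochondrial UMIs were kept (10260 diabetic and 10948 normoglycemic). Scrublet marked 0 diabetic and 2 normoglycemic cells as doublets against an expected 8.21% and 8.76%, so it did not work. The 2 cells were dropped, and an alternative removed the 842 diabetic and 959 normoglycemic cells with the highest scores. Cells were clustered with scanpy 1.11.5 (2000 variable genes, 30 principal components, 15 neighbours, Leiden resolution 1.0). The variable genes excluded the members, the pathway lists, genes tied to sex and immune receptor segments. Clusters took their names from marker lists, and each cell was then gated. Cells outside the gate (1245 diabetic and 1141 normoglycemic) and in unnamed clusters (307 and 332) entered no class. Their UMIs stayed in the library totals behind each class contribution. Cells outside the gate held 15.8% of diabetic and 25.4% of normoglycemic Hbegf UMIs, and 21.5% and 17.2% of Tgfb1 UMIs. The mural-like cluster also scored highly for endothelial markers, and the mast-like cluster equally for basophil ones.

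UMIs were summed per class and library and divided by the class total. Levels have exact Poisson intervals, ratios exact conditional binomial intervals and shares of cells exact Clopper-Pearson intervals, all at 95% and for counting error only, since UMIs of 1 cell are not independent. Upper limits for a count of 0 use 3 counts. For shares, each cell was thinned to 1000 UMIs. A pair was called past 1.5-fold. Named pathway genes were, in each class, the up to 2 per direction with the largest fold past 1.5 that were measured with at least 50 UMIs together. Alternatives changed the gate, clustering, cell filter, doublets, scaling (TMM of edgeR 4.0.16 and median-of-ratios of DESeq2 1.42.0), the low-count filter, the depth of thinning and the sex of the cells called from Xist and Y-linked genes. Leaving out the 3 cells with most UMIs was chosen after seeing the data. The computation was tested on simulated data. The members, marker lists and pathway lists were chosen with earlier results of these data known. The promoter of Ereg and the sequences of Hbegf are not shown here.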

Additional observations from a re-analysis of the deposited data

Results flagged for a closer look

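The antibody capture features, which were outside the comparisons above, held UMIs in both libraries. The 4 features summed to 250351 UMIs in the diabetic library and 700188 UMIs in the normoglycemic library, and the labels used here do not say what they mark.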

How the results depend on the processing

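No paired analysis was possible because each condition has 1 library, and no library could be left out. All 24 pairs past 1.5-fold kept their direction with TMM or size-factor scaling, the looser or stricter cell filter, no per-cell gate, no low-count filter and without the 3 cells with most UMIs. With finer clusters 23 did, with the gate alone 23, and without the highest doublet scores 21. Direction reversed for Tgfbi in alpha-beta T-like cells with the gate alone (1.66), at Leiden resolution 2.0 (1.87) and without the highest doublet scores (1.69). Without the highest doublet scores it also reversed for Inhba in alpha-beta T-like cells (1.22) and Tgfbi in gamma-delta or type 17 T-like cells (1.2), and in male-called cells for Areg in neutrophil-like cells (0.483). The cause was not tested.

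The count of higher member pairs, 7, became 12 without the gate (10 classes compared), 11 without the low-count filter, 2 in male-called cells (3 classes) and 0 in female-called cells (1 class). The lower pairs, 17, became 6 and 1 in male-called and female-called cells. Members with the same leading class in both libraries, 7, became 3 and 4. Pathway pairs on the higher side, 6, became 10 with the stricter filter, 10 without the highest doublet scores and 72 without the low-count filter. Those on the lower side, 48, became 73 without the gate, 119 without the low-count filter, 17 in male-called and 3 in female-called cells. The sex-called settings compare fewer classes by construction.

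Without thinning, 98 of the shares of cells moved beyond their interval and 3 did not, and at 2000 UMIs per cell 70 moved and 31 did not. Scaling moved the log2 ratios of a whole class by at most 0.13 outside neutrophil-like cells. Depth limits Ereg, Egfr in leukocytes and every stromal value of the normoglycemic library, where classes held 6 to 22 cells.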
